A study of Mus musculus with 3 samples.

Results

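The genes of the ELAVL, NOVA and CELF families and Pum2 encode RNA-binding proteins that control splicing, stability and translation of other transcripts. The set examined here was chosen by name, with earlier results of these data known. It holds 9 genes, Elavl1, Elavl2, Elavl3, Elavl4, Nova1, Nova2, Celf1, Celf2 and Pum2, of the 21028 protein-coding genes to which GENCODE mouse M21 gives a 3′UTR. The transcripts of these genes were examined for contact with Ago2, the protein that carries mature miRNAs to their target transcripts. The study used HITS‐clip, in which RNA is fixed to protein by ultraviolet light, recovered with an antibody and sequenced. The 3 libraries were replicates of 1 group, N2A cells under basal conditions, immunoprecipitated with an anti-Ago2 antibody (clone 2D4). N2A is an established mouse neuroblastoma cell line, and the labels give no genotype change, treatment or time point for it. Each sample was exposed first to 400 and later to 200 mJ per square cm.

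The question of the design is which transcripts carried Ago2 peaks in every replicate. No control immunoprecipitation or input was analysed here, so peaks on the opposite strand of the same gene were counted in the same way as background. Such counts do not show how much of a gene's own RNA would be recovered without Ago2, and do not replace such a control. The labels number the replicates but do not state whether they came from separate cultures, so the spread between them may be technical. With 1 group there was no contrast and no test, and all values below are descriptions.

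ELAVL proteins bind U-rich and AU-rich stretches of 3′UTRs and are best known for stabilising the transcripts they hold. Elavl1 (HuR) is made in most cells, whereas Elavl2 (HuB), Elavl3 (HuC) and Elavl4 (HuD) are neuronal. NOVA proteins bind clusters of YCAY and direct alternative splicing in neurons, CELF proteins bind GU-rich RNA and act in splicing and transcript decay, and Pum2 is a Pumilio protein that represses transcripts that hold its UGUA-type sequence. A miRNA held by Ago2 pairs with its target mainly through the seed, positions 2 to 8 from its 5′ end, and such pairing usually lowers the output of the target. Transcripts of such regulators are often controlled through their own 3′UTRs.

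The libraries held 711377, 498071 and 829936 peaks in replicates 1, 2 and 3, with median widths of 83, 84 and 85 nt. The number of reads behind a peak is unknown, since the table holds intervals only, and a peak is no measure of the level of a transcript. In bulk cells, fewer cells with a transcript and less of it per cell cannot be told apart. Replicate 1 stood apart in the 3′UTRs, with a peak in 7321 genes against 9394 in replicate 2 and 10175 in replicate 3. Counts of stretches shared by the libraries are therefore given without it too for the 9 genes, though not for their position or for other genes named. Of 18 neuronal or sympathoadrenal marker genes, 9 carried peaks in the 3′UTR in every library, as did 23.9% of all genes. A stretch shared by all libraries was found in 5 of the 18 and in 14.3% of all genes. Among the 5, Map1b led with 20 and Ret had 9. Nefl and Th had no peak in any library. Of 5 genes each, myeloid markers had 1 with a peak in all libraries (Ptprc, with 1, 3 and 3 peaks), glial markers 2, fibroblast markers 2 (Col1a2, and Pdgfra with 4 shared stretches), and hepatocyte and muscle markers 0.

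Each of the 9 genes had at least 1 peak in its 3′UTR on its own strand in every library. Among all 21028 genes 23.9% met this rule. Long 3′UTRs hold more peaks, and the median 3′UTR of the 9 genes was 4218 nt against 960.5 nt over all genes. Among genes with a 3′UTR length within 20% of that of each gene, between 41.7% and 62.3% had a peak in all libraries. On the opposite strand, 1 of the 9 genes (Celf2) met the rule, where the share among all genes was 2.63%.

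A recurrent region was defined as a stretch of at least 8 nt of the longest 3′UTR that was covered by peaks on the strand of the gene in all 3 libraries. The genes held 43 such regions, with a median of 81 nt, out of 7839 regions in all genes, with a median of 69 nt. At least 1 region was found in 7 of the 9 genes, where 14.3% of all genes had one, and the exceptions were Elavl3 and Celf2. Among genes of similar 3′UTR length, between 24.8% and 38.3% had a region. At least 5 regions were found in 6 of the 9 genes, where the share over all genes was 2.04%. Without peaks over 1000 nt, 5 genes reached this number, Nova2 being lost (1.88% of all genes), and with peaks of 86 to 200 nt only it was 3 genes (0.69%). Without replicate 1 it was 7 genes, against 8.77% of all genes. No region was found on the opposite strand of the 9 genes, and 0.737% of all genes had one there. Without replicate 1, recurrent regions numbered 101 and were absent only from Celf2, while 30.3% of all genes then had one.

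**Figure D1:**
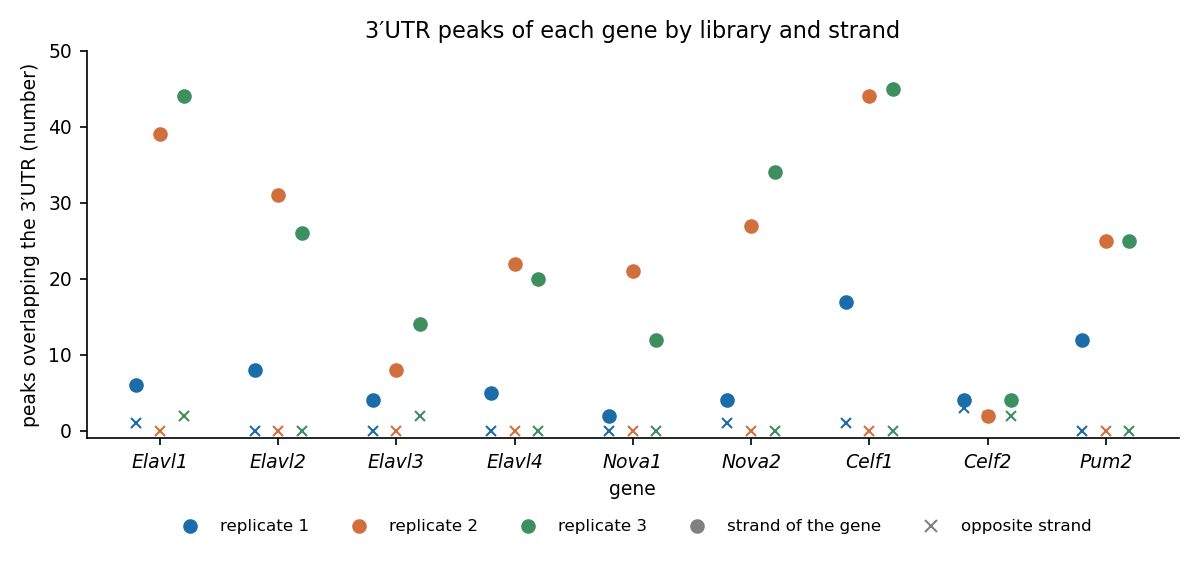
Number of peaks that overlap the 3′UTR of each gene (vertical axis) in each library, with circles for the strand of the gene and crosses for the opposite strand. For every gene but Celf2 replicate 1 gave the fewest peaks on the strand of the gene, and for Celf2 both strands lay at between 2 and 4 peaks.

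Among the ELAVL genes, the ubiquitous Elavl1 (ENSMUSG00000040028, minus strand, GRCm38 chr8:4285382-4325413) had 6, 39 and 44 peaks in its 3′UTR of 4218 nt in replicates 1, 2 and 3. Peaks on the opposite strand numbered 1, 0 and 2. These peaks covered 11.8%, 72.8% and 79.4% of the 3′UTR, a mean of 54.7% ± 37.2 (SD, n = 3). Replicate 1 was far below the other libraries, which covered the same 58.7% of the length together. The mean lay at percentile 96.8 among 1419 genes of similar 3′UTR length, whose median was 9.48%. Its 5 regions measured 52 to 83 nt and were spread from 147 nt after the stop codon to the last base of the 3′UTR, at chr8:4285382-4285460. All 5 coincided with a stretch in replicate 1, which had only 6 separate stretches, and without that library the count rose to 20.

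Elavl2 (ENSMUSG00000008489, minus strand, chr4:91250763-91400785) had the most recurrent regions of the set when all 3 libraries were required, with 11. Its 3′UTR of 2477 nt carried 8, 31 and 26 peaks in replicates 1, 2 and 3, with 0 on the opposite strand in each library. They covered 30.9%, 94.7% and 89.3% of the length, with a mean of 71.6% ± 35.4 (SD, n = 3). Only 24 nt of this 3′UTR lay outside the peaks of all libraries. The mean stood at percentile 99.3 among 2605 genes of similar length, whose median was 6.21%. Replicates 2 and 3 covered the same 85.0% of the length together, so the regions mostly follow the peaks of replicate 1. Whether the libraries shared more than their cover alone would give was not tested for any gene. The 11 regions, of 9 to 100 nt, summed to 665 nt, which is 26.8% of the 3′UTR. Without replicate 1 it had 12, fewer than Celf1 (23), Elavl1 (20) and Nova2 (18), and with peaks of 86 to 200 nt only it had 7, as did Celf1 and Pum2. With peaks trimmed by 30 nt on each side Elavl2 had 5 and Pum2 6. The regions of Elavl2 began 7 nt after the stop codon, at chr4:91253153-91253233, and the last 5 lay close together between 1533 and 2047 nt after it.

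Elavl2 also held 5 of the 13 seed matches found under the regions of the 9 genes. A seed match here is the reverse complement of seed positions 2 to 8 (7mer-m8), called 8mer when an A follows. The 5 sites are printed because they place the sequences of 5 miRNA families inside stretches that every library covered. Peaks appear to be padded by 30 nt at either end, and once this was cut off only 4 matches lay in regions. Each window of 22 nt is given 5′ to 3′ on the transcript strand, as DNA from GRCm38, with the seed match, and the A that makes an 8mer, in capitals.
Elavl2, miR-142 site, 8mer, chr4:91253170-91253191: gcaagttaagagaaACTTTATA
Elavl2, miR-203 site, 8mer, chr4:91252762-91252783: ttgtgtttggtttaCATTTCAA
Elavl2, miR-148 site, 8mer, chr4:91251421-91251442: ggccttcatcaggaTGCACTGA
Elavl2, miR-153 site, 7mer-m8, chr4:91251339-91251360: gaacaggcaatgtgCTATGCAt
Elavl2, miR-27 site, 7mer-m8, chr4:91251234-91251255: agtacagtacatatACTGTGAg
The first lay in the region next to the stop codon and the others in the second, eighth, ninth and eleventh regions. The mature miRNAs that these sites match follow from the RefSeq table, with the seed in capitals.
miR-142a-5p: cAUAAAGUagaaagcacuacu
miR-203-3p: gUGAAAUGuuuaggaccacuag
miR-148a-3p: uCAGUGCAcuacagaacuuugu
miR-153-3p: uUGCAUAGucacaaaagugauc
miR-27b-3p: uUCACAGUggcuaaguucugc

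Elavl3 (ENSMUSG00000003410, minus strand, chr9:22015005-22052023), the neuronal paralog known as HuC, gave a different picture. Its 3′UTR of 3498 nt had 4, 8 and 14 peaks in replicates 1, 2 and 3, against 0, 0 and 2 on the opposite strand. The covered length was 11.5%, 19.7% and 34.1%, with a mean of 21.8% ± 11.4 (SD, n = 3). The peaks fell at different places in the libraries, so that no base was covered in all of them. Replicates 2 and 3 shared 6.58% of the length, and 4 regions were found without replicate 1, 2 without replicate 2 and 1 without replicate 3. The mean lay at percentile 72.0 among 1920 genes of similar length, of which 48.9% had a peak in all libraries.

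Elavl4 (ENSMUSG00000028546, minus strand, chr4:110203722-110351909), the gene of HuD, resembled Elavl1 in covered length. Its 3′UTR of 2610 nt had 5, 22 and 20 peaks in replicates 1, 2 and 3 and none on the opposite strand. They covered 17.6%, 82.3% and 66.4%, a mean of 55.4% ± 33.7 (SD, n = 3), at percentile 96.9 among 2515 genes of similar length. Replicates 2 and 3 did not overlap with replicate 1 in these values. The 5 regions, of 33 to 90 nt, began 1312 nt after the stop codon, and the last reached the end of the 3′UTR at chr4:110203722-110203810. Without replicate 1, Elavl4 had 11 regions. Of its 11 seed matches 2 lay in regions, for miRNA families that also matched Elavl2 regions (miR-142 and miR-153, printed above).
Elavl4, miR-142 site, 7mer-m8, chr4:110203771-110203792: tttgaattatttgtACTTTATc
Elavl4, miR-153 site, 7mer-m8, chr4:110204416-110204437: gaaacagttactcgCTATGCAt
The windows of the paralogs differed outside the seed match. Of the 14 bases before it, Elavl2 and Elavl4 shared 6 at the miR-153 site and 2 at the miR-142 site, position by position.

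The NOVA genes, whose products direct neuronal splicing, had 3′UTRs longer than those of the ELAVL genes. Nova1 (ENSMUSG00000021047, minus strand, chr12:46694517-46818929) had 2, 21 and 12 peaks in 5452 nt in replicates 1, 2 and 3 and 0 on the opposite strand. The covered length was 3.32%, 33.1% and 20.5%, a mean of 19.0% ± 15.0 (SD, n = 3). Replicate 1 contributed only 2 peaks, and 1 of them gave the only region, of 88 nt, at chr12:46699783-46699870, which starts 99 nt after the stop codon. The mean was at percentile 66.4 among 804 genes of similar length. Without replicate 1, 8 regions were found. Nova1 had the most seed matches of the set, 37, and none of them lay in its region.

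Nova2 (ENSMUSG00000030411, plus strand, chr7:18925888-18965319) had 4, 27 and 34 peaks in a 3′UTR of 6701 nt, against 1, 0 and 0 on the opposite strand. They covered 36.4%, 34.4% and 44.5%, a mean of 38.5% ± 5.36 (SD, n = 3). The SD was the smallest of the set apart from that of Celf2, and this rested on 1 peak of replicate 1 that was 2170 nt wide, whereas the regions it overlapped carried peaks of at most 138 nt in replicates 2 and 3. All 7 regions, of 13 to 185 nt, lay under it. Without peaks over 1000 nt the mean fell to 27.7% and no region was left, although 3, 27 and 34 peaks remained. Replicates 2 and 3 alone shared 18 regions. Annotation places a lincRNA, Gm26821, on the opposite strand over 2759 nt of this 3′UTR and over 2 of the regions. The Nova2 seed match printed next was 1 of 2 in the first region, chr7:18960878-18960986, the other being for miR-24, and it depends on the same wide peak.
Nova2, miR-96 site, 8mer, chr7:18960904-18960925: agatggagattttaGTGCCAAA
miR-96-5p: uUUGGCACuagcacauuuuugcu

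**Figure D2:**
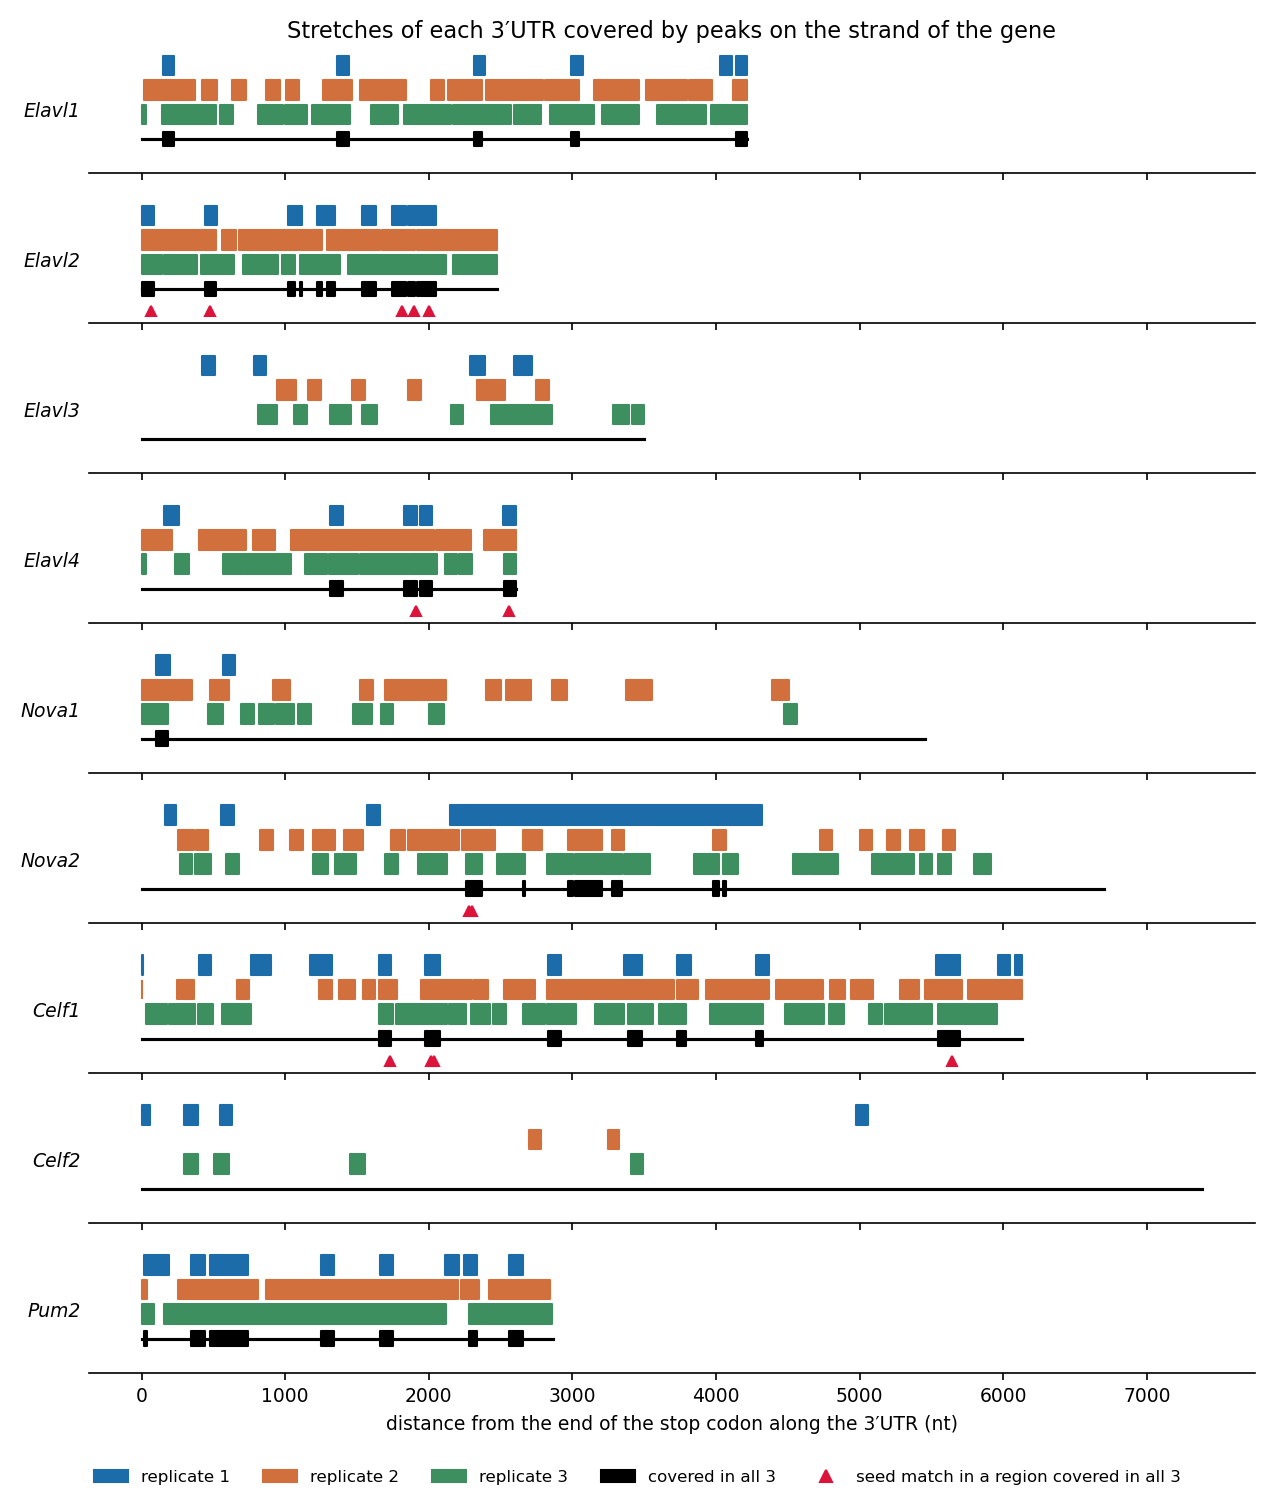
Stretches of each 3′UTR covered by peaks in replicates 1, 2 and 3 (coloured bars), the regions covered in all of them (black bars on the line of the 3′UTR) and seed matches inside regions (triangles), against distance from the end of the stop codon in nt. The regions of Nova2 lie under 1 wide peak of replicate 1, and Elavl3 and Celf2 have no black bar.

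Among the CELF genes, Celf1 (ENSMUSG00000005506, plus strand, chr2:90940382-91019497), whose product promotes decay of transcripts with GU-rich elements, had the most peaks of the set. Its 3′UTR of 6132 nt carried 17, 44 and 45 peaks in replicates 1, 2 and 3, against 1, 0 and 0 on the opposite strand. They covered 21.2%, 67.1% and 64.0%, a mean of 50.7% ± 25.6 (SD, n = 3), at percentile 95.5 among 618 genes of similar length, whose median was 9.20%. Replicate 1 was again the lowest, but its 17 peaks were the most it gave to any of the 9 genes. The 7 regions, of 43 to 153 nt, started 1655 nt after the stop codon, with none in the first of 5 equal parts of the 3′UTR. With peaks of 86 to 200 nt only, the count was again 7, and without replicate 1 it was 23. Celf1 held 4 seed matches in 3 regions, which are printed because 2 are for miR-23, 1 for the miR-148 family that also matched Elavl2, and 1 for miR-10 in the same region as a miR-23 site.
Celf1, miR-148 site, 7mer-m8, chr2:91015079-91015100: aaacttgaattctgTGCACTGg
Celf1, miR-23 site, 7mer-m8, chr2:91015366-91015387: tttgtagaatccagAATGTGAt
Celf1, miR-10 site, 7mer-m8, chr2:91015384-91015405: tgattgttgtacacACAGGGTg
Celf1, miR-23 site, 8mer, chr2:91018988-91019009: taaagtgatttcacAATGTGAA
miR-23a-3p: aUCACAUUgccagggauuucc
miR-10b-5p: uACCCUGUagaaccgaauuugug

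Celf2 (ENSMUSG00000002107, minus strand, chr2:6539694-7509563) had the longest 3′UTR, 7381 nt, and the fewest peaks. They numbered 4, 2 and 4 in replicates 1, 2 and 3, against 3, 2 and 2 on the opposite strand. The covered length was 4.35%, 2.19% and 5.32% on the strand of the gene, a mean of 3.96% ± 1.60 (SD, n = 3). On the opposite strand, where wider peaks occurred, the mean was 28.1%, from 13.3%, 68.5% and 2.36%. Celf2 therefore met the rule of a peak in all libraries at the level of its opposite strand. Replicate 2 shared no covered base with the other libraries, whereas replicates 1 and 3 shared 161 nt, which gave 2 regions without replicate 2 and 0 without replicate 1. The mean lay at percentile 41.3 among 366 genes of similar length. When only peaks of 86 to 200 nt were used, Celf2 had 1, 0 and 3 and was the only gene of the set that no longer had a peak in every library, where 16.9% of all genes did.

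Pum2 (ENSMUSG00000020594, plus strand, chr12:8674134-8752581), the Pumilio gene of the set, was covered to the same extent as Elavl2. Its 3′UTR of 2861 nt had 12, 25 and 25 peaks in replicates 1, 2 and 3 and none on the opposite strand. They covered 34.7%, 87.2% and 91.3%, a mean of 71.0% ± 31.6 (SD, n = 3), at percentile 99.3 among 2363 genes of similar length, whose median was 7.17%. Only 29 nt lay outside all peaks. Replicates 2 and 3 covered the same 82.1% of the length together, so its regions too mostly follow the peaks of replicate 1. The 7 regions summed to 706 nt, which is 24.7% of the 3′UTR, and the third, at chr12:8750198-8750460, was the longest of the 43, with 263 nt. With peaks of 86 to 200 nt only, Pum2 again had 7 regions, and without replicate 1 it had 5. None of the 9 seed matches of Pum2 lay in a region, although 7 lay in peaks of replicate 2 and 8 in peaks of replicate 3.

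In order of mean covered length the genes ran Elavl2, Pum2, Elavl4, Elavl1, Celf1, Nova2, Elavl3, Nova1 and Celf2. The order of neighbours was not fixed, since without replicate 2 Pum2 (63.0%) stood above Elavl2 (60.1%), and Elavl1 (45.6%) and Celf1 (42.6%) above Elavl4 (42.0%). With peaks trimmed by 30 nt on each side Pum2 (49.0%) also led Elavl2 (42.1%). Library by library, Pum2 was above Elavl4 in all 3, and Celf1 was above Nova2 in replicates 2 and 3 but not in replicate 1. Nova2 was above Elavl3 in all 3, which in replicate 1 rests on the wide Nova2 peak. Within replicates 2 and 3, the first 5 genes of the order stood between 64.0% and 94.7%, and the other 4 between 2.19% and 44.5%.

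**Figure D3:**
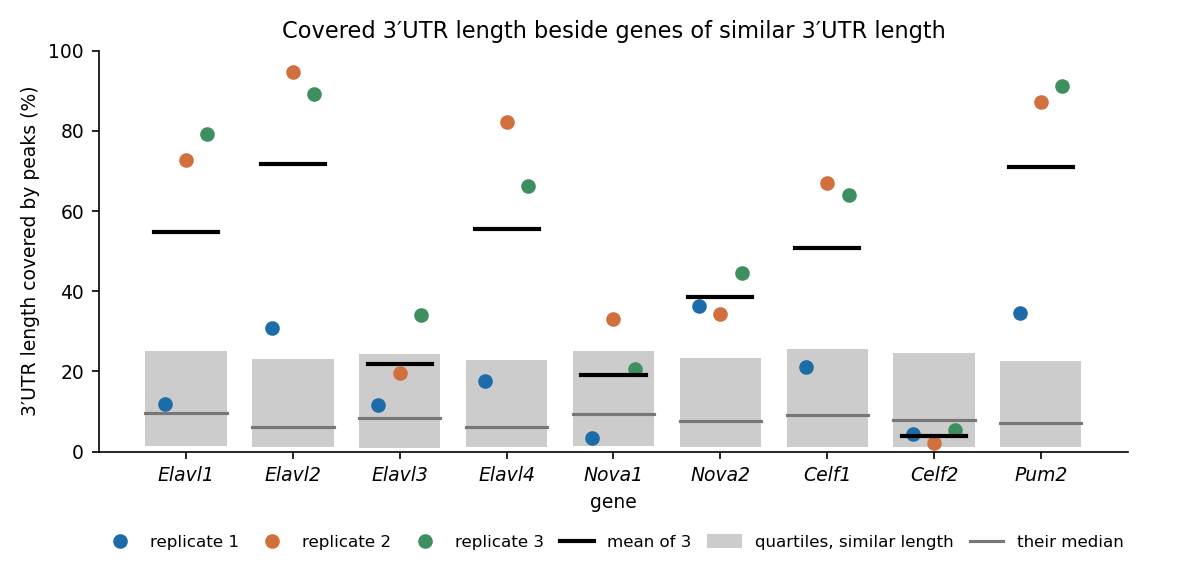
Percent of the 3′UTR of each gene covered by peaks on its strand (points, 1 per library, with the mean as a black line) beside the quartiles and median of genes with a 3′UTR length within 20% (grey). The means of 6 genes lie above the grey boxes, those of Elavl3 and Nova1 lie in their upper part, and that of Celf2 lies below its median of 7.91%.

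The rest of each transcript was examined by assigning each peak midpoint on the strand of the gene to 1 transcript part. The 9 genes held 597, 538 and 1095 midpoints in replicates 1, 2 and 3, against 200, 133 and 220 on the opposite strand. The share in 3′UTRs was 10.4% (95% Wilson interval 8.19 to 13.1), 40.3% (36.3 to 44.5) and 20.2% (17.9 to 22.7). Over all genes the 3′UTR shares were 7.46%, 25.1% and 13.2%, so the 9 genes pooled were higher in each library, as a description only. Celf2 by itself was lower in each, with 2.48%, 2.78% and 4.0%. Nova1 (2.56%) and Elavl4 (6.94%) were lower in replicate 1, and Pum2 (7.76%) in replicate 3. On the opposite strand the shares were 3.0%, 1.5% and 2.73%. The libraries differed more from each other than their counting intervals, with means of 23.6% ± 15.3 (SD, n = 3) for the 9 genes and 15.2% ± 8.98 for all genes. The intervals cover counting error only.

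Most of the other midpoints fell in introns, which are far longer than the exons. The intronic share of the 9 genes was 67.9% ± 20.01 (SD, n = 3) against 70.8% ± 13.9 over all genes, and the coding share was 6.83% ± 4.50 against 9.97% ± 4.84. Per kb of its own length, the coding sequence of Elavl1 had 7.48 midpoints and its 3′UTR 6.95 ± 4.81, so the parts did not differ beyond the spread between libraries. Celf1 showed the same, with 6.04 per kb of coding sequence and 5.65 ± 2.64 per kb of 3′UTR. Elavl2 had 4.46 per kb of coding sequence and 8.61 ± 4.73 per kb of 3′UTR, and its introns had 0.58. The lowest coding values were those of Celf2, Elavl3 and Nova2, with 0.74, 0.79 and 1.00 per kb, followed by Nova1 with 2.32.

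The library with the densest intronic peaks differed between genes, being replicate 3 for Pum2, Celf1, Elavl2, Elavl3 and Nova2, and replicate 1 for Elavl1, Elavl4, Nova1 and Celf2. Pum2 had 1.01, 0.65 and 3.89 intronic midpoints per kb in replicates 1, 2 and 3, and Celf1 had 0.61, 0.47 and 2.36. Elavl2 had 0.53, 0.15 and 1.07. Elavl1 and Nova1, in contrast, reached 0.67 and 0.65 in replicate 1 and 0.61 and 0.33 in replicate 3. Celf2, with the longest introns, had 152, 70 and 92 intronic midpoints on its own strand and 109, 69 and 117 on the opposite one, 0.11 and 0.10 per kb as means. Its intronic peaks were above the opposite strand in replicate 1, about equal in replicate 2 and below it in replicate 3. The opposite strand is no plain background there, since annotation places 4 genes on it within Celf2 (Gm24340, Gm13389, Gm26565 and Gm37340).

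**Figure D4:**
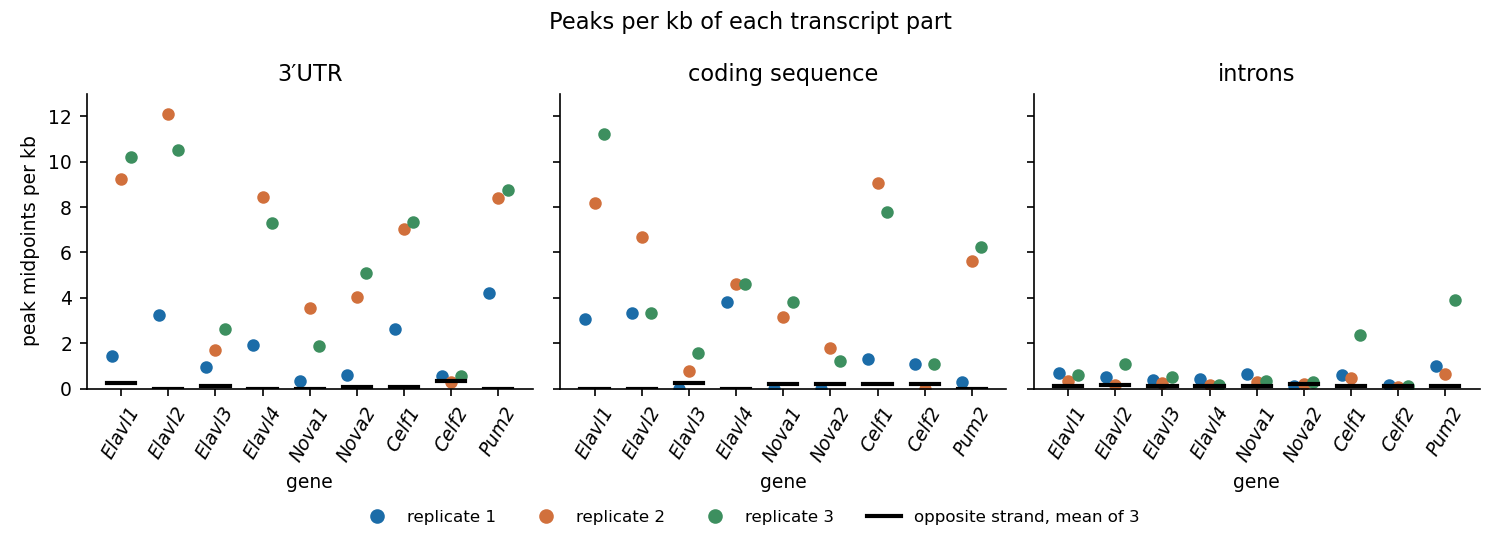
Peak midpoints per kb of 3′UTR, coding sequence and introns of each gene (points, 1 per library), with the mean on the opposite strand as a black line. Elavl1 and Celf1 reach similar values in 3′UTR and coding sequence, and replicate 3 stands above the other libraries in the introns of Elavl2, Celf1 and Pum2.

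Stretches covered in all libraries were also found outside the 3′UTRs. Over whole gene bodies there were 71, of which 43 lay in 3′UTRs, 15 in coding sequence, 2 in 5′UTR and 11 in introns, against 2 on the opposite strand, both in Celf2 introns. Celf1 had 5 in coding sequence, Elavl1 and Elavl4 3 each, and Elavl2 and Pum2 2 each. The coding stretches of Elavl2 lay shortly before the stop codon, at chr4:91253261-91253286 and chr4:91253354-91253384. Elavl4 was the only gene of the set with stretches in the 5′UTR, at chr4:110287278-110287327 and chr4:110287342-110287377. Pum2 had 7 of the 11 intronic stretches and Celf1 3. Coding stretches were thus found in 5 of the 9 genes, 5′UTR stretches in 1 and intronic stretches in 3, where 9.41%, 0.861% and 13.4% of all genes had them. Without replicate 1 there were 193 stretches on the strand of the genes, of which 100 had their midpoints in 3′UTRs, 32 in coding sequence, 2 in 5′UTR and 57 in introns. Pum2 then had 10 in coding sequence and 27 in introns, and Celf1 8 and 15. Coding stretches were then found in 7 genes and intronic stretches in 8, where 25% and 36.1% of all genes had them.

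Along the 3′UTR, the 43 regions were spread unevenly. With the 3′UTR divided from the stop codon into 5 equal parts, 6, 6, 14, 11 and 6 regions had their midpoints in them. Over all genes the first part held 24.1%, the third 18.2% and the last 19.5%, while for these genes the first held 13.95%, the third 32.6% and the last 13.95%. Of the 14 regions in the third part, those of Nova2 belong to its wide peak. Only 2 regions reached the end of the 3′UTR, those of Elavl1 and Elavl4 given above, which is 4.65% against 3.43% over all genes.

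The regions were richer in A and T than the rest of the same 3′UTR in 6 of the 7 genes. In Celf1 the regions held 61.3% A and T and the rest 54.7%, and in Pum2 69.7% and 63.0%. The Nova1 region stood at 76.1% against 64.7%. Nova2 regions did not differ, at 47.2% in both. The same comparison over all genes gave 64.2% and 56.9%, in the same direction.

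The motifs that these proteins themselves are known to bind were searched in the regions on the transcript strand. ATTTA, the core of AU-rich elements bound by ELAVL proteins, occurred in 10 of the 43 regions (23.3%) against 18.4% of all 7839 regions. With peaks trimmed by 30 nt on each side it was in 1 of 26 regions, and with peaks of 86 to 200 nt in 4 of 25. Without replicate 1 it was in 31 of 101. TATTTAT, which contains ATTTA, occurred in 2 of the 43 regions (4.65% against 3.29%), and TTTTTTT in 3 (6.98% against 6.25%). The Pumilio motif TGTANATA occurred in 3 regions (6.98% against 4.01%), and 1 of them was the longest region of Pum2 itself. The other 2 were the region of Nova1 and the first region of Nova2. TGTGTGT, a CELF motif, occurred in 0 of the 43 regions against 2.44% of all regions, and TCAT, part of the NOVA motif, in 11 (25.6% against 25.8%). Shares of this size over 43 regions differ from those over all regions by few regions, and a match is no evidence of binding.

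The seed matches were counted for 40 of 46 listed miRNA families, those with a mature sequence in the RefSeq table. The 3′UTRs of the 9 genes held 177 matches, of which 62 were 8mer. Under the regions lay 13, of which 5 were 8mer, in 11 of the 43 regions and for 9 families. Elavl2 had 5 of them, Celf1 4, and Elavl4 and Nova2 2 each, while Elavl1, Nova1 and Pum2 had regions without any. The density was 3.99 matches per kb in regions and 4.31 per kb outside them, pooled over the 9 genes. Gene by gene it was split, being higher inside in Elavl2 (7.52 against 4.97), Elavl4 (5.83 against 3.97), Nova2 (4.27 against 3.69) and Celf1 (6.30 against 3.46), and 0 inside in Elavl1, Nova1 and Pum2. These values rest on at most 5 matches in regions per gene. Over all genes it was 4.55 in regions and 3.89 outside.

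Pooled over the 9 genes, seed matches did not fall in peaks more often than the covered length of the 3′UTRs in any library. In replicate 1, 16.4% of the 177 matches lay in peaks (95% Wilson interval 11.7 to 22.5), where 17.8% of the length was covered. In replicate 2 the values were 42.9% (35.9 to 50.3) and 46.3%, and in replicate 3 they were 45.8% (38.6 to 53.1) and 47.2%. The covered share lay inside the interval in every library. The pooled values join genes of very different cover, and Nova1 and Celf2 supplied 37 and 33 of the 177 matches. Elavl4 was above its covered length in all libraries, with 27.3%, 90.9% and 72.7% of its 11 matches in peaks against 17.6%, 82.3% and 66.4% of its length. Nova2 was above it in replicates 1 and 2, with 52.0% and 44.0% of its 25 matches against 36.4% and 34.4%, and below it in replicate 3, with 40.0% against 44.5%. Its matches in replicate 1 peaks all lay under the wide peak. Elavl1 was below its covered length in all libraries, with 0%, 64.7% and 70.6% of its 17 matches against 11.8%, 72.8% and 79.4%. Pum2 was below as well, with 11.1%, 77.8% and 88.9% of its 9 matches against 34.7%, 87.2% and 91.3%. The remaining genes were split between libraries.

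**Figure D5:**
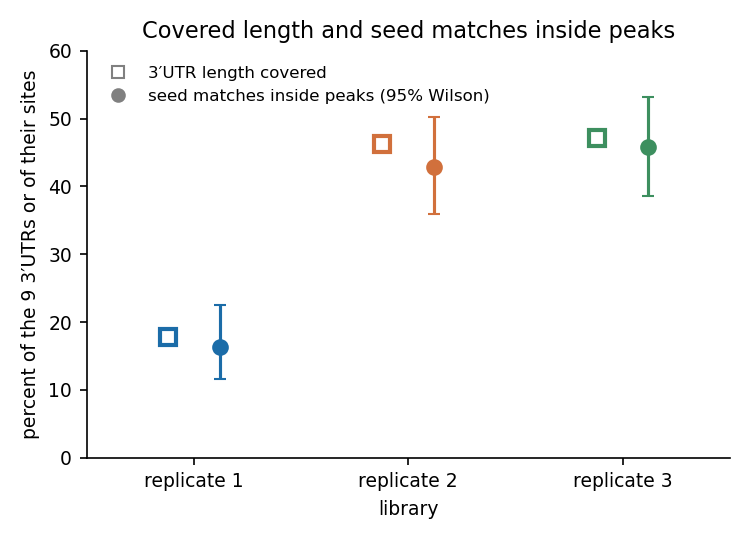
Percent of the summed length of the 9 3′UTRs covered by peaks (squares) and percent of their 177 seed matches that lie inside peaks (circles, with 95% Wilson intervals) in each library. The squares lie inside the intervals of the circles in each of the 3 libraries.

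By family, miR-142, miR-148, miR-153 and miR-23 each matched 2 of the 43 regions (4.65%), where 1.77%, 0.88%, 0.51% and 1.42% of all regions held the same match. The sites are those printed above for Elavl2, Elavl4 and Celf1. The families miR-10, miR-203, miR-24, miR-27 and miR-96 each matched 1 region (2.33%), against 0.281%, 0.88%, 0.446%, 1.1% and 0.332% of all regions. The other 31 families matched none, among them miR-181 and miR-15/16, found in 1.48% and 1.47% of all regions. No family matched over 1.77% of all regions, so any family with at least 1 match here stands above its own share. A hairpin was covered by a peak in all libraries for miR-142 (1 of 1), miR-148 (3 of 3), miR-153 (1 of 1) and miR-23 (1 of 1), and these families account for 8 of the 13 sites. The hairpins of miR-10, miR-203, miR-24, miR-27 and miR-96 were not covered in all libraries. A peak over a hairpin does not measure how much of the mature miRNA Ago2 held. In all, 27 of the 40 families had such a hairpin, and none was covered in all libraries on the opposite strand.

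Requiring peaks in replicates 2 and 3 alone raised the number of matches to 53, of which 20 were 8mer, for 25 families. The families with the most were miR-148 with 6, in Celf1, Elavl2, Elavl4 and Pum2, and miR-23 with 6, in Celf1, Nova2 and Pum2. Elavl1, which had none when replicate 1 was required, had 9 in this count. Nova1 had 5, of which 4 were 8mer. Celf2 had 1, 0 and 2 of its 33 matches in peaks of replicates 1, 2 and 3. The let-7 family matched the 9 3′UTRs only 1 time and no region.

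The other CELF paralogs, listed by family, had lower counts than Celf1 and shorter 3′UTRs. Celf3 had 1, 1 and 3 peaks in 1075 nt, Celf4 0, 4 and 11 in 2124 nt, Celf5 2, 0 and 7 in 3099 nt, and Celf6 0, 2 and 4 in 1341 nt. None of them had a region. Of a list of 52 other RNA-binding protein genes, which includes these 4, 34 carried 3′UTR peaks in every library and 25 had a region. On the opposite strand 4 had a peak in every library. The shares over all genes were 23.9%, 14.3% and 2.63%. No comparison with genes of similar 3′UTR length was made for this list. The median covered length of this list was 20.6%, with a median 3′UTR of 2007 nt, against 50.7% and 4218 nt for the 9 genes. The most regions in the list were those of Cpeb2 (14), a cytoplasmic polyadenylation factor, Mbnl2 (11) and Mbnl1 (9), splicing factors of the muscleblind family, and Msi2 (9), a Musashi translational regulator. Rbfox1, Rbfox3, Khdrbs3 and Pabpc4 had no 3′UTR peak in any library.

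Genes with a similar 3′UTR length and the most similar peak counts were sought by the distance between square roots of the counts over the 3 libraries. For Elavl2 these were Scarb2 (8, 28 and 25 peaks, distance 0.29), Pbrm1 (8, 28 and 24, distance 0.34) and Glce (9, 27 and 26, distance 0.41), with 8, 8 and 10 regions against its 11. Nova2, Celf1 and Pum2 were tied at 7 regions behind Elavl2 in the count over all 3 libraries, an order that did not hold without replicate 1. The nearest gene to Pum2 was Tmtc2 (12, 25 and 24 peaks, distance 0.10), with 10 regions. The nearest to Celf1 was Alg10b (17, 48 and 43 peaks, distance 0.33), with 12 regions. The nearest to Nova2 was Zyg11b (3, 26 and 37 peaks, distance 0.38), with 1 region. The likeness is over 3 libraries only.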

How the data were processed

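Ago2 HITS‐clip peaks of 3 N2A libraries were used as deposited. The authors called peaks per sample on mm10 (GRCm38). FastQC, cutadapt and STAR are named in the submitters' processing notes, while versions, the peak caller and its threshold are not given in the sources used here. The deposited score has no stated unit, was 60 for 98.9%, 99.3% and 99.6% of peaks, and ranked nothing here. The number of further columns of values per sample was 0. Starts were read as counted from 0, and peaks as padded by 30 nt on each side. Only peaks on the 21 primary chromosomes entered, which dropped 430, 276 and 315 peaks of replicates 1, 2 and 3. Peaks wider than 1000 nt made up 3.02%, 4.83% and 2.77%.

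Annotation was GENCODE mouse M21, and each gene was represented by the longest 3′UTR among its protein-coding transcripts. An overlap of at least 1 nt on the same strand counted. Where transcripts of a gene differed, a midpoint counted as 3′UTR first, then as coding, 5′UTR, intronic or non-coding exonic. Mature miRNAs came from RefSeq, and miR-124-3p, miR-375-3p, miR-122-5p, miR-1a-3p, miR-133a-3p and miR-145a-5p had no entry. The members and lists were chosen with earlier results of these data known. All 9 genes were named, and of other genes the 3 nearest in peak counts to the members with the most regions (for tied members only the nearest), the 4 listed RNA-binding protein genes with the most regions, markers, and, after their values were seen, paralogs and listed genes at 0. Sites were printed 8mer first, up to 12, and families with more hairpins covered in all libraries first. Scripts ran under Python 3.11.15 with pysam 0.24.0, pandas 2.3.3, numpy 2.4.6 and scipy 1.17.1. The region search was tested on simulated data of 1000 genes and returned 200 of 200 planted regions and none in the other 800 genes. In those 800 genes the simulated peaks were placed so that the libraries never shared a stretch. Each gene had only 1 peak per library on its strand. The test therefore checks the search itself and gives no rate of regions without shared binding. Alternatives covered strand, number of libraries, 3′UTR model, peak width, trimming, overlap, region length, site type and leaving out each replicate.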

Additional observations from a re-analysis of the deposited data

How the results depend on the processing

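With 1 group and no contrast, no result has a direction, and 57 of 209 alternative values of 25 results moved by over 1.5 times (counts) or over 1 SD (percentages). Leaving out 1 of 3 libraries cannot move a mean by over 1 SD of those libraries. Percentages without a replicate therefore counted as unmoved whatever their values, and the results look steadier by this count than they are. On the opposite strand 1 of the 9 genes had a peak in all libraries, 0 regions were found, and 4 of the other RNA-binding protein genes met the rule. Requiring at least 2 of 3 libraries gave 110 regions in place of 43. With peaks of 86 to 200 nt only there were 25 regions, 7 seed matches in them and 4 regions with ATTTA. With peaks trimmed by 30 nt on each side there were 26, 4 and 1. The mean covered length was then 24.5% in place of 43.0%. Elavl4 had 32.1%, Celf1 27.8%, Elavl1 27.7% and Nova2 22.2% with these trimmed peaks. Elavl3 had 9.99%, Nova1 8.63% and Celf2 1.34%. Seed matches in regions numbered 13, 5 as 8mer only, 46 with 6mer or longer, and 22 with regions extended by 30 nt. Leaving out each replicate in turn gave 9 genes with a peak in all libraries each time, 47 to 101 regions, 37.0% to 54.9% covered, 19 to 53 seed matches, a 3′UTR share of 15.3% to 30.3%, 10 to 31 regions with ATTTA, and 34 to 41 of the other genes. The highest counts of regions, matches and ATTTA came without replicate 1, and the match count without replicate 3 was 20. Leaving out peaks over 1000 nt, chosen after seeing the data, left 36 regions and removed those of Nova2. The cause of these differences was not tested. No paired analysis was possible because all 3 samples belong to 1 group, with no second group to pair them with. Read depth is unknown, so a 3′UTR stretch without a peak may be unbound or below the threshold of the caller.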
